A study of Rattus norvegicus with 19 samples.

Results

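Among the 32623 genes counted in the rat hippocampus, 5 transcripts without a named product were followed here in every library: AABR07006310.1, AABR07070225.1, AABR07043287.1, AABR07015081.2 and AABR07044711.1. They were chosen by the changes that their own read counts showed between genotype groups of these animals, so every difference of theirs between genotypes is given below as a description. Where a call by the fit across genes is mentioned for such a difference, it belongs to how the transcripts were picked and supports nothing. The relation of each transcript to the share of multi-mapped reads (reads that align to more than 1 place) was not part of a genotype contrast and was tested across all 15440 genes that passed the expression filter, which all 5 did. The animals were male Sprague Dawley rats, an outbred strain, taken as adult littermates with 1 hippocampal RNA library each. The groups were wt (n = 6), Del/+ (n = 4, 1 chromosome lacking the Sult1a1-Spn segment made by CRISPR/Cas9), Dup/+ (n = 5, 1 chromosome carrying that segment duplicated) and Del/Dup (n = 4, 1 deleted and 1 duplicated chromosome). The segment is the rat counterpart of the human 16p11.2 interval, and no other agent or allele is named in the labels.

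Genome annotations predict genes from alignments and sequence models, and a predicted gene that matches no named product receives the name of the sequence contig on which it lies. Symbols beginning with AABR07 are of this kind, followed by the contig's number and, after the point, a counter. Such models include non-coding RNAs, fragments of genes and copies of repeats, and the name carries no statement of function. A short read is assigned to such a model only when it aligns to a single place, because the counting program sets reads with several alignments aside in a line of their own. For a model with near-identical copies elsewhere, the assigned reads are then a part of those produced, and the split between copies is uncertain. The function of these 5 transcripts is not known from the sources used here, and none of the 5 matched the RefSeq gene or promoter tables by symbol.

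The files held 6776 genes with an AABR07 symbol, of which 995 (14.7%) passed the filter, against 47.3% of all genes. Library depth was 16191192 to 38760645 reads assigned to genes. The share of multi-mapped lines among all lines counted stood apart in some libraries. It was 40.1% to 47.6% in wt and 45.1% to 50.5% in Dup/+, but 73.1%, 76.3% and 63.9% in Del/+ replicates 1, 2 and 3, 41.6% in Del/+ replicate 4, and 57.8% to 70.7% in Del/Dup. The 7 libraries above 55% were therefore 3 of 4 Del/+ and 4 of 4 Del/Dup, so that Del/Dup and a high share cannot be told apart. The summed level of 24 interval genes was between 2966 and 3148 counts-per-million (CPM) for wt. It was between 1421 and 1658 for Del/+, between 4233 and 4569 for Dup/+ and between 2582 and 2901 for Del/Dup, so no 2 groups overlapped. wt replicate 5, whose genotype field reads Dup/+ against its description, is counted in that wt range. By this measure it thus lay below every Dup/+ library. All 10 listed markers of hippocampal neurons averaged at least 1 CPM in wt. Their summed level was 4971 to 5823 CPM over wt libraries and 4501 to 5531 over Dup/+. It was lower in Del/+, at 4192 to 4826, without overlap with wt, and reached from 3885 to 5098 over Del/Dup. The median log2 difference of the 10 was -0.24 in both Del/+ and Del/Dup and -0.09 in Dup/+. None of the 10 was called by edgeR, and 7, 4 and 1 had an unadjusted p under 0.05 in Del/+, Del/Dup and Dup/+. The shares of all genes under that unadjusted p were 18.4%, 16.2% and 8.94%, in the same order. The part of these markers in the levels below was not tested.

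Markers of choroid plexus, a tissue next to the hippocampus, were high in some carrier libraries. The summed level of the 10 listed markers lay between 24.4 and 60.2 CPM for wt, between 24.9 and 1383 for Del/+, between 28.8 and 460.2 for Dup/+ and between 70.8 and 1311 for Del/Dup. Del/+ replicates 1 and 2 and Dup/+ replicates 1, 3 and 4 lay inside the wt range, whereas all 4 Del/Dup libraries lay above it. Of these markers 9 passed the filter and 0 were called in any comparison by the quasi-likelihood test of edgeR. At an unadjusted p under 0.05 there were 9 of 9 in Del/+, 2 in Dup/+ and 9 in Del/Dup, beside 18.4%, 8.94% and 16.2% of all genes. The 5 blood genes that were tested summed to between 118 and 162 CPM for wt, 104 and 164 for Del/+, 182 and 246 for Dup/+, and 134 and 165 for Del/Dup. Of these 5, 3 were called by edgeR in Dup/+, all higher, and 0 in Del/+ and Del/Dup. The shares of all genes called were 0.272% in Dup/+, 0.771% in Del/+ and 0.0907% in Del/Dup. At an unadjusted p under 0.05 there were 5 of 5 in Dup/+ and 0 in Del/+ and Del/Dup. The part of the blood genes in the levels below was not tested. In bulk tissue, fewer cells of a type and less RNA per cell cannot be told apart. The part of the choroid plexus markers in the levels below was examined only through the covariate values given beside them.

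The 5 transcripts spanned the range of expression. AABR07015081.2 averaged 6242 CPM, above 99.97% of the genes tested. AABR07044711.1 averaged 165 CPM, AABR07006310.1 19.2 CPM, AABR07070225.1 1.23 CPM and AABR07043287.1 0.596 CPM. CPM values are not corrected for length, so they do not rank the amounts of RNA. The label of carrier-specific expression held for none of the 5 in the strict sense, since each had reads in all 6 wt libraries. In the quasi-likelihood test of edgeR, with Benjamini-Hochberg adjustment at 0.05 over all genes, 3 of 5 were called in Del/+, where 119 of 15440 genes (0.771%) were called. The count was 2 of 5 in Dup/+, against 42 genes (0.272%), and 3 of 5 in Del/Dup, against 14 genes (0.0907%). These counts follow from how the 5 were picked.

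**Figure D1:**
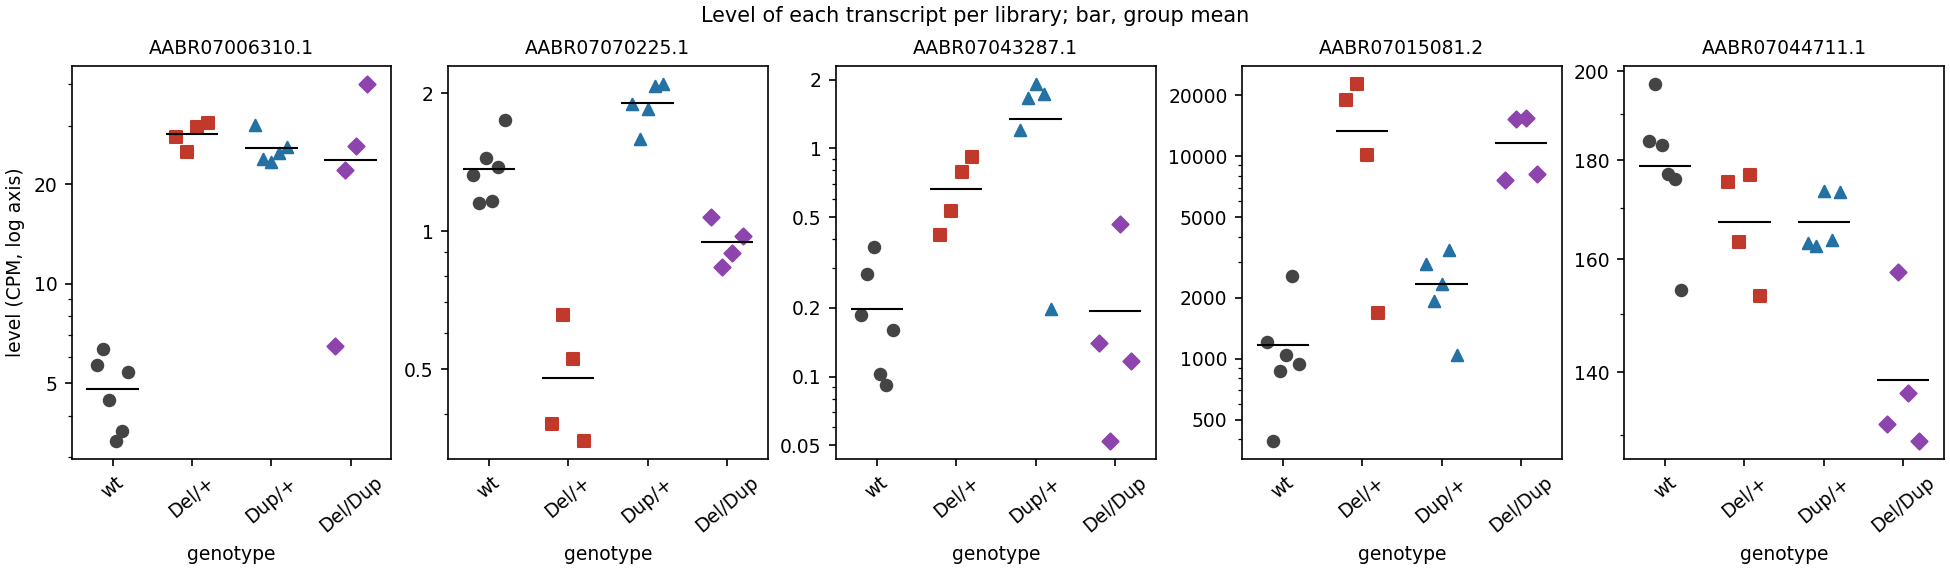
Level of each of the 5 transcripts in CPM (log axes, with a separate range per panel) by genotype. Each point is 1 library (wt n = 6, Del/+ n = 4, Dup/+ n = 5, Del/Dup n = 4) and each bar a group mean. AABR07006310.1 was above the wt range in all 13 carriers, and AABR07015081.2 was above it in 3 of 4 Del/+ and 4 of 4 Del/Dup libraries.

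AABR07006310.1 (ENSRNOG00000021084) stood above the highest wt library in every library of the 3 carrier genotypes. In wt its level ran from 3.36 to 6.35 CPM with a median of 4.93. The Del/+ libraries, replicates 1 to 4, held 27.7, 25.0, 29.7 and 30.7 CPM. The Dup/+ libraries, replicates 1 to 5, held 30.3, 23.8, 23.2, 24.9 and 26.0 CPM. None of these 9 libraries came near the wt range, and Del/+ and Dup/+ overlapped each other. The Del/Dup libraries, replicates 2 to 5, held 6.50, 22.0, 26.0 and 40.1 CPM. Replicate 2 lay just above the highest wt library, with 139 reads against 98 to 213 reads in wt, and replicate 5 was the highest of all 19. The mean was 4.80 ± 1.20 CPM over wt (SD, n = 6), 28.3 ± 2.52 over Del/+ (SD, n = 4), 25.6 ± 2.79 over Dup/+ (SD, n = 5) and 23.7 ± 13.8 over Del/Dup (SD, n = 4). The log2 difference from wt was 2.54 ± 0.28 (SE) in Del/+, 2.39 ± 0.28 in Dup/+ and 2.29 ± 0.29 in Del/Dup. Without Del/Dup replicate 2 the Del/Dup difference was 2.60.

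The group means of AABR07006310.1 in Del/+ and Dup/+ were thus 5.88 and 5.33 times that of wt, on the same side although the copy number of the interval moves in opposite directions. Its biological coefficient of variation (the spread between replicates beyond counting error) was 0.302, larger than for 95.1% of genes, and the widest group was Del/Dup, where the highest library was 6.17 times the lowest. The differences changed little with the share of multi-mapped reads in the fit. Among the 12 libraries of low share alone, which keep only replicate 4 of Del/+, its level was 30.7 CPM in that library and 23.2 to 30.3 CPM in Dup/+. With the share as a covariate the log2 differences from wt were 2.72, 2.43 and 2.48 in Del/+, Dup/+ and Del/Dup. With the summed choroid plexus markers as a covariate they were 2.70, 2.49 and 2.50. With a term for the libraries of high share the Del/Dup difference was 2.44 ± 0.54 (SE), and moving wt replicate 5 to Dup/+ gave a Dup/+ difference of 2.09.

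AABR07070225.1 (ENSRNOG00000015333) was lowest in Del/+ and highest in Dup/+, the order of the copies of the interval, and Del/Dup lay between Del/+ and wt. The wt libraries ran from 1.15 to 1.75 CPM with a median of 1.36. In Del/+ the level was 0.381, 0.656, 0.526 and 0.349 CPM in replicates 1 to 4. In Dup/+ it was 1.90, 1.59, 1.85, 2.08 and 2.10 CPM in replicates 1 to 5. All Del/+ libraries were below every wt library, while 4 of 5 Dup/+ libraries were above every wt library and replicate 2 fell inside the wt range. In Del/Dup, replicates 2 to 5, it was 1.07, 0.837, 0.896 and 0.980 CPM, below the lowest wt library in 4 of 4. These values rest on few reads: wt libraries had 34 to 50, Del/+ libraries 11 to 20, Dup/+ libraries 31 to 54 and Del/Dup libraries 16 to 25. The log2 difference from wt was -1.40 ± 0.19 (SE) in Del/+, 0.46 ± 0.15 in Dup/+ and -0.50 ± 0.18 in Del/Dup. With a term for the libraries of high multi-mapped share the differences were -1.77 ± 0.33 in Del/+, 0.46 ± 0.15 in Dup/+ and -0.98 ± 0.40 in Del/Dup, and with the share as a covariate they were -1.61, 0.42 and -0.71. With the choroid plexus covariate they were -1.39, 0.46 and -0.47.

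The likeness of AABR07070225.1 to other genes was measured by Pearson's r of log2 CPM over the 19 libraries, over all genes tested. The 3 most alike were genes of the interval: Fam57b (r = 0.934), a membrane protein of ceramide metabolism, Prrt2 (r = 0.934), a presynaptic protein of neurotransmitter release, and Aldoa (r = 0.928), the glycolytic enzyme aldolase A. As a multiple of the wt mean, AABR07070225.1 averaged 0.349 in Del/+, 1.39 in Dup/+ and 0.691 in Del/Dup. Fam57b averaged 0.494, 1.42 and 0.928, and Aldoa 0.503, 1.46 and 0.906, in the same order. Prrt2 averaged 0.449, 1.32 and 0.854. In Del/Dup the 4 libraries lay at 0.611 to 0.784 for AABR07070225.1 and at 0.827 to 0.987 for the 3 interval genes, without overlap, whereas in Del/+ they overlapped, at 0.255 to 0.479 and 0.406 to 0.580. The correlations are over libraries that share the group means from which the transcript was picked. On deviations from the group means the most alike genes were others, among them Cox6b2 (r = 0.800), a subunit of cytochrome c oxidase, and Kcnc2 (r = 0.793), a potassium channel. The median log2 difference of the 24 interval genes was -1.01 in Del/+, 0.53 in Dup/+ and -0.07 in Del/Dup.

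**Figure D2:**
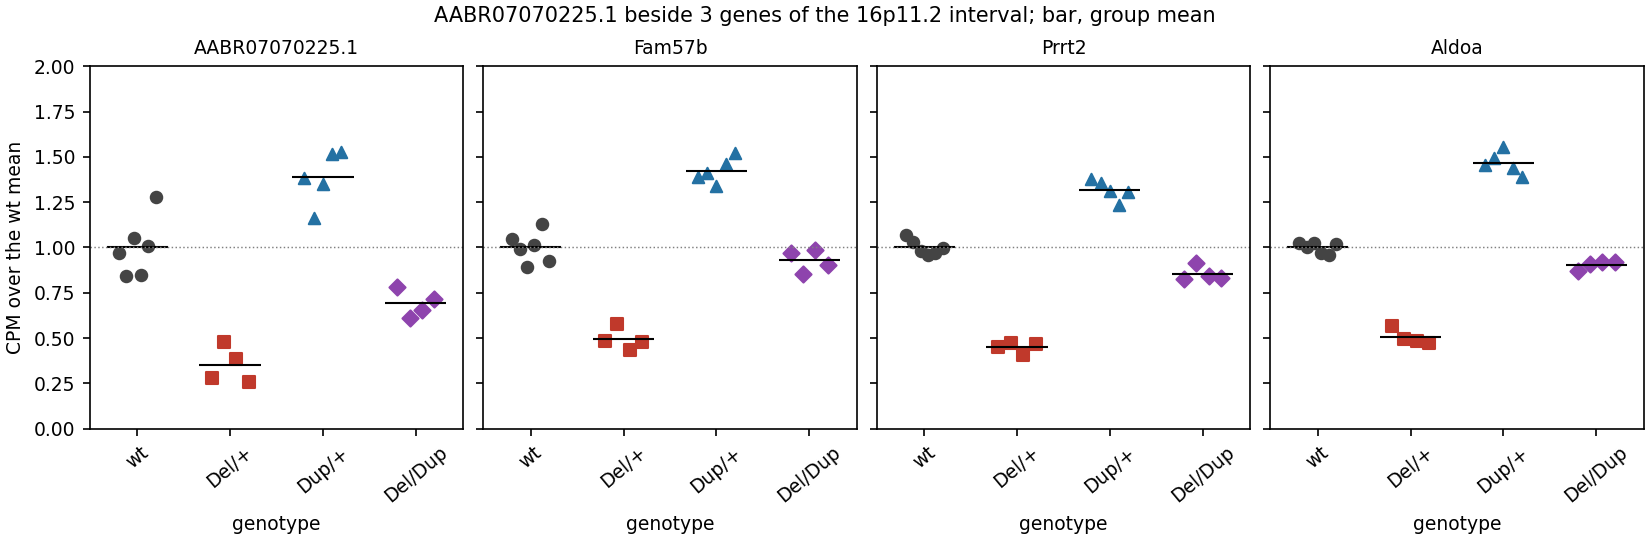
Level over the wt mean (linear axis from 0) of AABR07070225.1 and of Fam57b, Prrt2 and Aldoa, the interval genes most like it over 19 libraries. Points are libraries and bars group means, and the dotted line is the wt mean. Del/Dup means were 0.691 for AABR07070225.1 and 0.928, 0.854 and 0.906 for Fam57b, Prrt2 and Aldoa.

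AABR07043287.1 (ENSRNOG00000057292) had the lowest mean level of the 5 and scattered widely within Dup/+ and Del/Dup. In wt it ranged from 0.0921 to 0.371 CPM with a median of 0.173, or 3 to 10 reads. In Del/+ it was 0.415, 0.533, 0.790 and 0.914 CPM in replicates 1 to 4. In Dup/+ it was 1.20, 1.66, 1.91 and 1.73 CPM in replicates 1 to 4 and 0.198 CPM in replicate 5. The 4 higher Dup/+ libraries were above every other library, whereas replicate 5, with 5 reads, lay at the wt mean. In Del/Dup, replicates 2 to 5, the level was 0.140, 0.0523, 0.467 and 0.118 CPM, and replicate 4 alone was above the wt range. Del/Dup replicate 3 had 1 read. The log2 difference from wt was 1.47 ± 0.52 (SE) in Del/+, 2.38 ± 0.48 in Dup/+ and 0.03 ± 0.68 in Del/Dup. Without Dup/+ replicate 5 the Dup/+ difference was 2.65, and without Del/Dup replicate 4 the Del/Dup difference was -0.60. Moving wt replicate 5 to Dup/+ gave a Dup/+ difference of 2.01. With the choroid plexus covariate the differences were 1.38 in Del/+, 2.33 in Dup/+ and -0.12 in Del/Dup.

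The biological coefficient of variation of AABR07043287.1 was 0.475, larger than for 98.6% of genes. The genes most like it over 19 libraries were Tbc1d7 (r = 0.732), a subunit of the tuberous sclerosis complex, Bcl10 (r = 0.713), an adaptor of NF-kappaB signalling, and Adipor2 (r = 0.713), an adiponectin receptor. On deviations from the group means they were Slco5a1 (r = 0.817), an organic anion transporter family member, Smpd4 (r = 0.782), a sphingomyelinase, and Plekhf1 (r = 0.768). No gene was common to the 2 lists. AABR07043288.1, on the contig with the next number, had 0 reads in wt replicate 3 and in Del/Dup replicates 2, 3 and 5. The other wt libraries held 0.706 to 5.06 CPM of it, Del/+ libraries 1.45 to 7.51 CPM, Dup/+ libraries 3.16 to 6.40 CPM and Del/Dup replicate 4 held 4.64 CPM. The library of Del/Dup that held reads of AABR07043288.1 was thus the one in which AABR07043287.1 was highest, but wt replicate 3, at 0 for the former, had the highest wt level of the latter. AABR07043288.1 was not called in any of the 3 comparisons (adjusted p in edgeR 0.578 in Del/+, 0.756 in Dup/+ and 0.553 in Del/Dup).

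AABR07015081.2 (ENSRNOG00000054945) had the widest range of levels. In wt it ran from 394 to 2559 CPM with a median of 990.03. In Del/+ it was 18877, 22705, 10129 and 1686 CPM in replicates 1 to 4. In Dup/+ it was 2931, 1939, 2328, 3454 and 1048 CPM in replicates 1 to 5. The other 3 Del/+ libraries thus stood far above wt, while replicate 4 and 3 of 5 Dup/+ libraries lay inside the wt range. In Del/Dup, replicates 2 to 5, it was 7617, 15229, 15487 and 8150 CPM, above the wt range in 4 of 4. As a share of all reads assigned to genes, this single model took 0.0389% in wt replicate 2 and 2.26% in Del/+ replicate 2. The log2 difference from wt was 3.51 ± 0.52 (SE) in Del/+, 1.0 ± 0.48 in Dup/+ and 3.31 ± 0.52 in Del/Dup.

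The level of AABR07015081.2 was high in the libraries with a high share of multi-mapped reads. It was 394 to 3454 CPM in the 12 libraries of low share and 7617 to 22705 CPM in the 7 of high share, with no overlap between the 2 sets. The 7 are all Del/+ or Del/Dup libraries, the groups for whose level the transcript was picked, so this split adds nothing to the genotype values. Del/+ replicate 4, the 1 Del/+ library of low share, had the lowest level of its group. Within Dup/+, where the share spanned only 45.1% to 50.5%, the order of the 5 libraries by level was their order by share. Within Del/+ the order of the 4 libraries was likewise the same by level and by share. In wt it was not, and replicate 5, with a share of 45.4%, had the highest level. In Del/Dup the 2 libraries of lower share, replicates 2 and 5, had the 2 lower levels.

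The slope within groups on the share was fitted with edgeR over all 15440 genes, with a mean for each group. For AABR07015081.2 it was 1.11 ± 0.18 (SE) on the log2 scale per 10 percentage points, or 2.16-fold. Its unadjusted p was the smallest of all genes, but with an adjusted p of 0.0669 it was not called. In this fit 0 genes were called (0%), and 919 had an unadjusted p under 0.05. DESeq2 called 4 genes, AABR07015081.2 among them, with an adjusted p of 2.84e-06. Leaving out wt replicate 5, wt replicate 3 or Del/+ replicate 2 also brought it past the threshold, with slopes of 1.09, 1.13 and 1.13 and adjusted p in edgeR of 0.00138, 0.0435 and 0.0469. Among the 7 libraries of high share alone it was 0.89 ± 0.07, with an adjusted p of 0.0125. Without Del/+ replicate 4, the only Del/+ library of low share, the slope was 1.10 ± 0.30 and the adjusted p in edgeR 0.9999. Among the 12 libraries of low share alone it was 2.11 ± 0.76, again with an adjusted p in edgeR of 0.9999.

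Once the share entered the genotype fit, the differences of AABR07015081.2 from wt in Del/+ and Del/Dup shrank. With the share as a covariate they were 0.89 ± 0.40 (SE) in Del/+, 0.58 ± 0.28 in Dup/+ and 1.08 ± 0.41 in Del/Dup. With a term for the 7 libraries of high share they were 0.53 ± 0.63 in Del/+ and -0.04 ± 0.80 in Del/Dup, while Dup/+ stayed at 1.0 ± 0.37. In that last fit the Del/+ value rests on replicate 4, the only Del/+ library of low share, and the Del/Dup value on the Del/+ libraries. With the summed choroid plexus markers as a covariate the differences were 3.71 in Del/+ and 3.86 in Del/Dup.

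**Figure D3:**
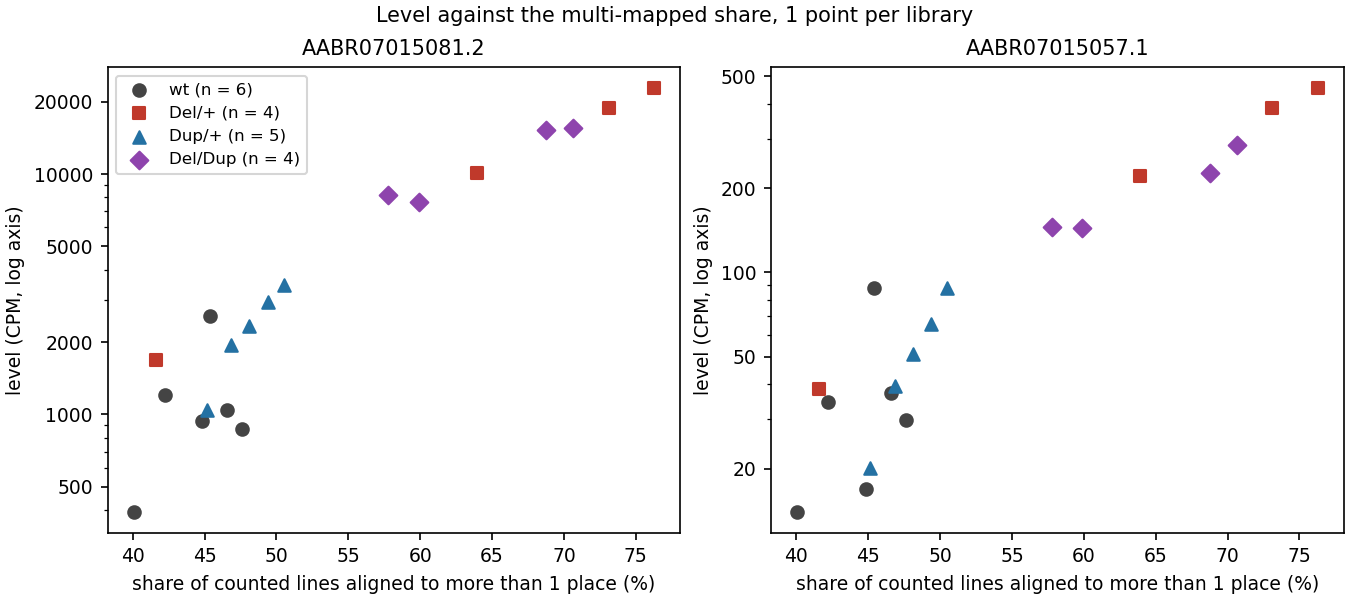
Level in CPM (log axes) of AABR07015081.2 and of AABR07015057.1 against the share of counted lines aligned to more than 1 place, in percent. Each point is 1 of 19 libraries, marked by genotype. The 7 libraries with a share of 57.8% or more held 7617 to 22705 CPM of AABR07015081.2, and the other 12 held 394 to 3454 CPM.

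AABR07015057.1 (ENSRNOG00000060518), whose contig number is near that of AABR07015081.2, was the gene most like it. Pearson's r was 0.981 over 19 libraries and 0.970 on deviations from group means. The next genes on deviations were Msto1 (r = 0.748) and AABR07039334.1 (r = 0.747). AABR07015057.1 stood at 14.0 to 88.1 CPM in wt, at 384, 453, 221 and 38.6 CPM in Del/+ replicates 1 to 4, at 20.1 to 88.4 CPM in Dup/+ and at 144 to 286 CPM in Del/Dup. Both transcripts had their highest wt level in replicate 5 and their lowest in replicate 2. The reads of AABR07015081.2 per read of AABR07015057.1 were 28.0 to 67.2, a range of 2.40-fold, in libraries where AABR07015081.2 itself ranged from 394 to 22705 CPM. This ratio was not even over the groups. It was 28.0 to 35.0 in wt replicates 1 to 5, 55.5 in wt replicate 6 and 39.1 to 67.2 over the carrier libraries. Reads that cannot be placed between copies of a sequence were set aside by the counting, so whether the 2 models share a source was not tested.

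Of the 13 other genes within 30 contig numbers of AABR07015081.2, 10 had 0 reads in all 19 libraries, and these include AABR07015081.1 on the same contig. The 3 with reads were those tested, and their slopes on the share had an unadjusted p under 0.05 and a positive sign in 3 of 3. Over all genes 5.95% had a slope with an unadjusted p under 0.05, of either sign. Of these 3, AABR07015078.1 and AABR07015057.1 were called in Del/+ (log2 differences of 6.44 and 2.89, adjusted p in edgeR 0.00887 for each). In Dup/+ and Del/Dup 0 were called. The shares of all genes called were 0.771% in Del/+, 0.272% in Dup/+ and 0.0907% in Del/Dup. This window was chosen after the slopes had been seen. AABR07015078.1 had a slope of 2.68 ± 0.51 (SE), the second smallest p (adjusted p in edgeR 0.0669), and AABR07015057.1 one of 1.06 ± 0.19, the third (adjusted p in edgeR 0.135). AABR07015079.1 had a slope of 2.13 ± 0.88 and was 37th of all genes. A single library decided the level of 2 of them, since AABR07015078.1 reached 81.8 CPM in Del/+ replicate 2 and 1.78 CPM at most elsewhere, and AABR07015079.1 reached 11.1 CPM in Del/Dup replicate 3 and 2.36 CPM at most elsewhere. Contigs with near numbers need not be neighbours on a chromosome.

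The other genes leading the slope fit were Mchr1, the receptor of melanin-concentrating hormone, with 0.18 ± 0.03 (SE) per 10 percentage points (adjusted p in edgeR 0.172), and AABR07052744.1, with 0.87 ± 0.23 (adjusted p in edgeR 0.451). AABR07052744.1 was also the third gene most like AABR07015081.2 over 19 libraries (r = 0.837), after LOC100364769 (r = 0.841). Both averaged under 1 CPM in every group. Ribosomal RNA genes, which are present in many copies, filled 321 of the gene rows, of which 1 was tested. Their summed level lay between 24.9 and 122 CPM for wt, between 28.2 and 40.2 for Del/+, between 36.8 and 62.2 for Dup/+ and between 21.3 and 87.5 for Del/Dup. Reads that aligned to several copies are not in these values.

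AABR07044711.1 (ENSRNOG00000047276) differed least. In wt it ran from 154 to 197 CPM with a median of 180.2. It was 175, 163, 177 and 153 CPM in Del/+ replicates 1 to 4, and 163 to 174 CPM in Dup/+. In Del/Dup, replicates 2 to 5, it was 132, 158, 137 and 129 CPM. In all, 3 of the 4 Del/Dup libraries were below the lowest wt library, and replicate 3 lay inside the wt range. The log2 difference from wt was -0.10 ± 0.06 (SE) in Del/+, -0.10 ± 0.06 in Dup/+ and -0.37 ± 0.06 in Del/Dup. Over 28 alternative fits the Del/Dup difference ran from -0.53 to -0.33. It was -0.45 ± 0.09 with the share as a covariate and -0.35 with the summed choroid plexus markers as a covariate. The call of this difference, by which the transcript was picked, was kept in only 17 of those 28 fits, and was lost in both of these covariate fits.

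The gene most like AABR07044711.1 over 19 libraries was Lrfn2 (r = 0.848), a synaptic adhesion protein, followed by Usp5 (r = 0.795), a deubiquitinase, and Tmem198 (r = 0.791). On deviations from group means Zbed3 (r = 0.856), Lrfn2 (r = 0.854) and Abcg4 (r = 0.817), a lipid transporter, were the most alike. Lrfn2 was thus in both lists, and averaged 33.1 CPM in wt, 30.1 in Del/+, 32.7 in Dup/+ and 28.1 in Del/Dup. Its own difference in Del/Dup, -0.24 on the log2 scale, was not called (adjusted p in edgeR 0.174). For AABR07006310.1 the most alike over 19 libraries were RF00100 (r = 0.770), a model of the 7SK small nuclear RNA family, Sec13 (r = 0.765), a coat protein of secretory vesicles, and Zfp133 (r = 0.752). On deviations they were Cers6 (r = 0.862), a ceramide synthase, Tspan18 (r = 0.850), a tetraspanin, and Tmem74 (r = 0.846). RF00100, represented by 1 of several gene rows of that name, averaged 0.191 CPM in wt, 0.642 in Del/+, 0.574 in Dup/+ and 0.394 in Del/Dup.

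**Figure D4:**
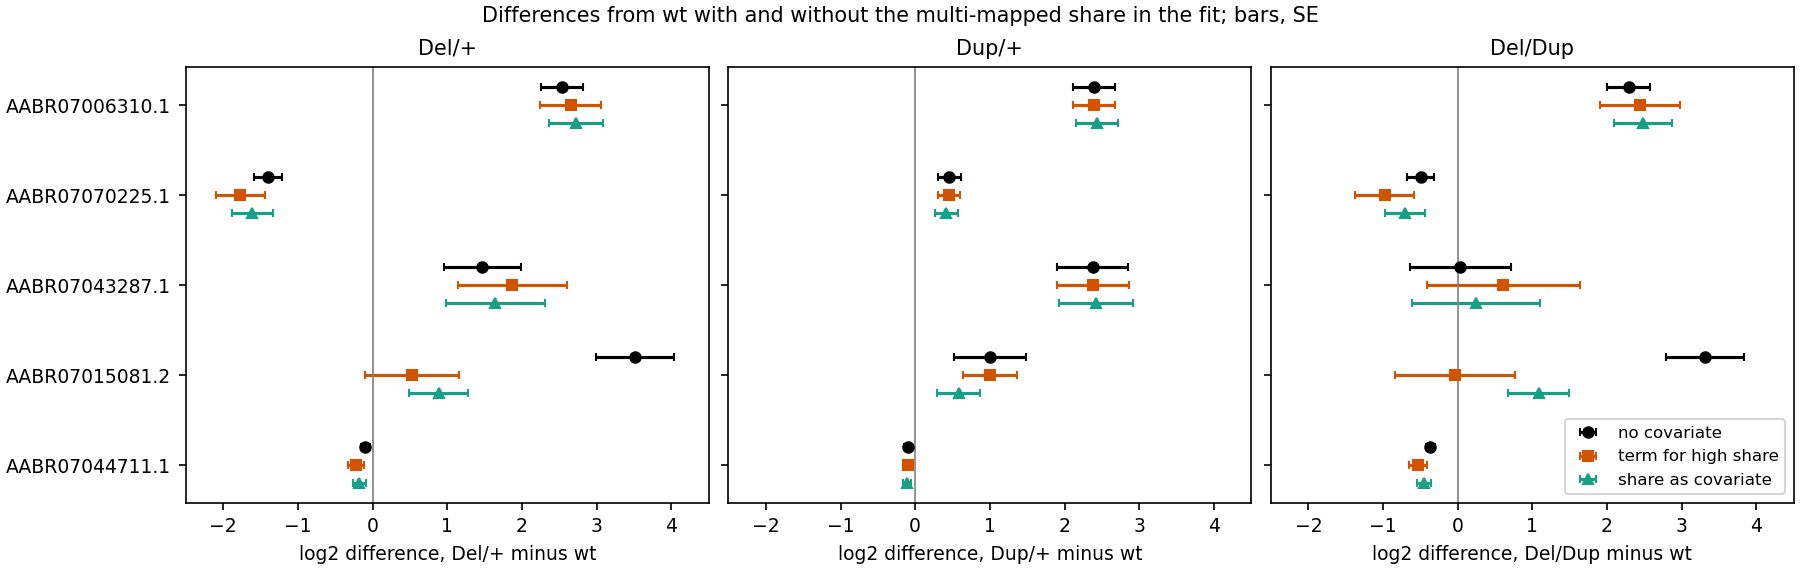
Log2 difference from wt of each transcript in the 3 carrier genotypes, fitted without a covariate, with a term for libraries of high multi-mapped share, and with the share as a covariate. Points are fitted differences and bars their SE. For AABR07015081.2 the difference in Del/+ was 3.51 without a covariate, 0.53 with the term and 0.89 with the covariate, while for AABR07006310.1 it was 2.54, 2.65 and 2.72.

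The other 4 transcripts had slopes on the share near 0 beside their errors. The slope per 10 percentage points was -0.10 ± 0.14 (SE) for AABR07006310.1, 0.11 ± 0.10 for AABR07070225.1, -0.10 ± 0.24 for AABR07043287.1 and 0.04 ± 0.03 for AABR07044711.1. Their adjusted p in edgeR was 0.972, 0.939, 0.973 and 0.925. The share ran from 40.1% to 76.3% over all libraries, but within wt and Dup/+ by less than 10 percentage points, so that the slopes are set mostly by Del/+ and Del/Dup.

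The 5 transcripts did not vary together. On deviations from group means, the 10 pairwise correlations over 19 libraries ran from -0.32 to 0.35. Over the libraries as they stand they ran from -0.53 to 0.56, the highest between AABR07006310.1 and AABR07015081.2, which were both high in Del/+ and Del/Dup. Libraries that stood apart differed between transcripts. Del/Dup replicate 2 was low for AABR07006310.1, Dup/+ replicate 5 for AABR07043287.1 and Del/+ replicate 4 for AABR07015081.2. Among the other 990 AABR07 genes tested, 6 were called in Del/+ (0.606%), 1 in Dup/+ (0.101%) and 1 in Del/Dup (0.101%), beside 0.771%, 0.272% and 0.0907% of all genes. Of the genes near each of the other 4 transcripts by contig number, 2, 2, 1 and 0 were tested for AABR07006310.1, AABR07070225.1, AABR07043287.1 and AABR07044711.1, and 0 of these 5 were called in any comparison by edgeR (1, AABR07006333.1, had an unadjusted p under 0.05, in Del/+ and in Dup/+).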

How the data were processed

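The authors made stranded total RNA libraries from hippocampus, sequenced short single-end reads, aligned them with HISAT2 to rn6 and counted them per Ensembl gene with HTSeq. The submitters' processing notes also name bcl2fastq 2.17.1.14, R 3.6 and DESeq2. The labels describe removal of ribosomal RNA and also name polyA RNA, which was not settled here, and the strand setting of the counting is not given in the sources used here, so overlapping and antisense genes cannot be told apart. The deposited files hold raw counts of reads for each gene, 1 library per file, checked to be whole numbers.

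The 5 summary lines of the counting program were kept out of library sizes and tests, and the multi-mapped line gave the share of each library. Groups and replicate numbers came from the description field. The genes that passed filterByExpr were scaled by TMM and fitted with the quasi-likelihood test of edgeR 4.0.16 (limma 3.58.1, R 4.3.3), with all 19 libraries and a mean per group. A second fit added the share as a slope within groups. A gene was called where its p, adjusted by Benjamini-Hochberg over all 15440 genes, was under 0.05. Log2 differences carry a prior count of 2, and the SE was the fitted coefficient over the square root of F. The share cut of 55% was set on earlier results of these data, as were the members and all lists used here. DESeq2 1.42.0 was an alternative, as were scaling, the filter, covariates, subsets and leaving out each library. The choroid plexus covariate and the comparisons among libraries of low share were added after seeing the data.

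The genes named are the 5 transcripts, those within 30 contig numbers that the results turn on, the 3 most alike by Pearson's r of log2 CPM and on deviations from group means, the 5 with the smallest p on the slope, and the marker lists. One gene that this rule names is not reported here. The marker lists were for ribosomal RNA, abundant structured RNA, hippocampal neurons, choroid plexus, blood and the interval.

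Same-numbered libraries of different groups did not deviate together: 2 of 24 pairs had a correlation over 0.1. Libraries of a group differed with a chi-square per degree of freedom of 3.60 to 59.9, so none was counted as a copy, and the common biological coefficient of variation was 0.101. On simulated counts over 15440 genes, 85% of genes changed 1.5-fold and 100% changed 3-fold were recovered in Del/+ against wt. For the slope it was 98% and 100%. Unchanged genes that were called numbered 3 in the first simulation and 10 in the second. Every gene was simulated with the common coefficient of 0.101. AABR07006310.1, AABR07043287.1 and AABR07015081.2 had 0.302, 0.475 and 0.532, so recovery at spreads like theirs was not measured. Pooled animals are not mentioned in the labels, and p-values measure the spread between these libraries.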

Additional observations from a re-analysis of the deposited data

Results flagged for a closer look

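AABR07015081.2 stood at 2559 CPM in wt replicate 5, apart from the other 5 wt libraries, the next of which held 1204 CPM. The gap was 0.626 of the range of the group, just over the critical value of 0.625. This was 1 of 24 groups of values checked. Chance alone marks about 1 in 20 where values are normally distributed, and the check was made on CPM, not on log2 values. The library is the one whose genotype field reads Dup/+. Its level of AABR07015081.2 lay within the range of the Dup/+ libraries, 1048 to 3454 CPM. For AABR07006310.1 it held 3.59 CPM, beside 3.36 to 6.35 CPM in the other wt libraries and 23.2 to 30.3 CPM in Dup/+. Both transcripts were picked for differences between the genotype groups, so their levels do not settle the genotype of this library.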

How the results depend on the processing

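Of 430 alternative values of the differences of the 5 transcripts from wt, 419 moved by less than the replicate spread, but the Del/Dup difference of AABR07043287.1, 0.03 in the main analysis, changed sign in some, from -0.60 to 0.61 over all. Of 140 slopes, 126 kept their direction and side of the threshold. The numbers of genes called moved more. With size factors in edgeR 9 genes were called in Del/Dup, and with library size alone 8. DESeq2 called 655 in Del/+, 80 in Dup/+, 183 in Del/Dup and 4 on the slope, of which 1 was among the 5 transcripts. Without a filter 6 genes were called on the slope, 1 of them among the 5. With wt replicate 5 as Dup/+, 12 were called in Dup/+, 57 in Del/Dup and 2 on the slope, 1 of them among the 5. A term for high share left 3 in Del/Dup and the share as a covariate 4. The choroid plexus covariate left 54 in Del/+ and 3 in Del/Dup. Among libraries of low share, where the lone Del/+ library is assumed to vary like the others, 299 were called in Del/+, and among those of high share 2 on the slope, 1 of them among the 5. With the replicate block, 72 were called in Del/+, 7 in Del/Dup and 1 on the slope; the numbers do not pair the libraries, and 0 of 19 correlated best with its own number. Leaving out 1 library gave 46 (without Del/+ replicate 2) to 337 (without Del/Dup replicate 2) in Del/+, 27 (without wt replicate 1 or Dup/+ replicate 1) to 44 in Dup/+, 2 (without Del/Dup replicate 4) to 216 (without Del/Dup replicate 3) in Del/Dup, and 0 to 9 (without Del/+ replicate 2) on the slope, with 0 to 1 of the 5. DESeq2 gave no adjusted p for AABR07070225.1 and AABR07043287.1 in Del/+, and without Dup/+ replicate 5 AABR07043287.1 was called in Del/+ at 1.47. Calls of the differences by which the transcripts were picked were lost for AABR07015081.2 in Del/Dup with the replicate block (3.40), without wt replicate 3 (3.24), when Del/Dup replicate 4 was omitted (3.15), in Del/+ and Del/Dup with the share in the fit, and in Del/+ among libraries of low share. They were lost for AABR07006310.1 in Dup/+ with wt replicate 5 moved (2.09) and in Del/Dup with the term for high share (2.44), and for AABR07043287.1 in Dup/+ with wt replicate 5 moved (2.01). The cause was not tested.

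The Del/Dup difference of AABR07015081.2 was -0.040 ± 0.80 (SE) with the term for high share, a value smaller than its error. All Del/Dup libraries are of high share, so this value rests on the Del/+ libraries. Slopes that were not called changed sign: AABR07043287.1 to 0.97 in libraries of low share and 0.058 in those of high share, AABR07044711.1 to -0.17 in those of low share, and AABR07070225.1 to -0.079 in those of high share. Leaving out 1 library, the slope ran from -0.21 to 0.0067 for AABR07006310.1, from -0.0036 to 0.15 for AABR07070225.1 and from -0.19 to 0.25 for AABR07043287.1. One read was worth 0.0263 to 0.0597 CPM, beside means of 1.23 and 0.596 CPM for the 2 rarest transcripts.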

Other observations

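One further transcript without a named product, AABR07005779.2, was named after its values had been seen. It was among the 12 AABR07 genes called in any comparison, with a log2 difference from wt of -0.95 ± 0.09 (SE) in Del/+, 0.61 ± 0.08 in Dup/+ and -0.16 ± 0.09 in Del/Dup (adjusted p in edgeR 2.09e-06, 0.000378 and 0.375). The paper counts another model of the same contig among the genes of the region that were highly expressed in the duplication. AABR07005779.2 is thus not known to lie outside the interval, and its own position was not checked here. The median log2 differences of the 24 interval genes were -1.01, 0.53 and -0.07. AABR07070225.1 had -1.40, 0.46 and -0.50. The slope of AABR07005779.2 on the share of multi-mapped reads was 0.05 ± 0.05 (adjusted p in edgeR 0.937). Of the abundant structured RNA list, whose families (7SK, signal recognition particle, RNase MRP and RNase P RNA) fill 494 gene rows, 51 rows were tested, and 3 were called in Del/+, 3 in Dup/+ and 0 in Del/Dup by edgeR, beside 0.771%, 0.272% and 0.0907% of all genes. At an unadjusted p under 0.05 there were 10, 17 and 13 of the 51, beside 18.4%, 8.94% and 16.2% of all genes.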
